A study of Homo sapiens with 12 samples.

Results

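Small nucleolar RNA (snoRNA) host genes were examined in MiaPaCa-2 cells after knockdown of 3 genes of citrate handling. MiaPaCa-2 is a long-established line grown from a human pancreatic carcinoma. The members were chosen by symbol, as SNHG followed by a number, GAS5, EPB41L4A-AS1, ZFAS1 or DANCR, and 32 of the 70116 rows of the deposited count table met that rule. Knockdown was by transfection of siRNAs, short double-stranded RNAs that lead the cell to cut the mRNA they match. The 4 groups were siControl (a control siRNA), siSLC25A1 (against the mitochondrial citrate carrier), siACLY (against ATP citrate lyase) and siACO1 (against cytosolic aconitase), with 3 libraries of polyadenylated RNA each. All groups share the same parent line and the transfection itself. The sequence and number of the siRNAs, the time after transfection and the nutrient condition are not given in the sources used here. The labels also do not say whether replicates were separate cultures, so p-values measure the spread between these libraries, which may be technical.

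SnoRNAs guide chemical modification of ribosomal RNA: box C/D snoRNAs direct ribose methylation and box H/ACA snoRNAs direct pseudouridylation. Most human snoRNAs are cut from introns, and the genes studied here are hosts whose spliced exons form a long noncoding RNA. Several of these spliced RNAs reach ribosomes through short reading frames and are then removed by nonsense-mediated decay (NMD), the pathway that destroys transcripts whose translation ends early, so that they accumulate when translation is blocked. Many hosts also begin with a run of pyrimidines, the 5′ terminal oligopyrimidine (TOP) feature shared with ribosomal protein mRNAs, whose translation follows growth signals.

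Start-site sequences are shown because the TOP feature is one property the selection did not use. RefSeq (GRCh38.p14) had a promoter entry for 28 of the 32 members. Each line gives 15 bases before and 15 from the annotated start on, on the transcribed strand, 5′ to 3′, with capitals for the run that was searched for: a C no more than 3 bases from the annotated start, followed directly by at least 4 bases that are each C or T.
DANCR (chr4:52712379-52712408, plus strand): tcggctgcgcgccccgCCCTTgcccagagt
SNHG19 (chr16:2155344-2155373, minus strand): ctcgcccgcccctgtCTTTTCggggtcgag
SNHG7 (chr9:136728170-136728199, minus strand): gcttcccttctcgtCCTCTgcgtgcgccgg
SNHG12 (chr1:28581859-28581888, minus strand): tcgcggcttcagcgcCCTTTCTCCCCgccg
SNHG4 (chr5:139274086-139274115, plus strand): ctcggctcccggctgCCCTTTCCCCTCCgg
ZFAS1 (chr20:49278627-49278656, plus strand): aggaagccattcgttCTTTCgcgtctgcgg
SNHG5 (chr6:85678719-85678748, minus strand): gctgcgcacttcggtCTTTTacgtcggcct
GAS5 (chr1:173869031-173869060, minus strand): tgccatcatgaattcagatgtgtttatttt
SNHG29 (chr17:16438972-16439001, plus strand): cccctccttttgtgaggattgggatattcc
SNHG20 (chr17:77088628-77088657, plus strand): atcacttccggccggaagttgctgacggag
The run was found in 11 of the 28 member windows (39.3%), in 13% of the 35114 RefSeq promoters and in 54 of 80 cytosolic ribosomal protein genes (67.5%). GAS5, SNHG29 and SNHG20 are printed as members whose window lacks these letters. Transcripts can start at positions other than the annotated one, so a window without the run says only that these letters are not there. Annotations also disagree on some starts. Among the members printed, GENCODE 29 begins GAS5 at 173868882, SNHG29 at 16438822, SNHG20 at 77086716 and, with the run, SNHG12 at 28583132 and ZFAS1 at 49278178. The GAS5 window thus lies wholly upstream of its GENCODE gene.

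By RefSeq, 27 of the 32 members enclosed at least 1 snoRNA gene, 147 in all. SNHG14, which spans the imprinted Prader-Willi region, held 84 of them. GAS5 held 11, of which 10 are box C/D, and SNHG1 held 9. SNHG10, SNHG20, SNHG21 and SNHG22 held none in RefSeq, but each encloses a scaRNA, the Cajal-body kind of guide RNA, in GENCODE release 29 (SCARNA13, SCARNA16, SCARNA15 and SCARNA17).

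Libraries held between 24159424 and 43792811 counts. The siRNA targets fell in their own groups, SLC25A1 from 134 to 11.7 CPM (read counts scaled to library size), ACLY from 499 to 36.1 and ACO1 from 45.0 to 1.68. The markers fixed for the line were present (KRT8, KRT18 and VIM at means of 1996, 1141 and 3895 CPM), CDKN2A and MTAP were at 0 in all libraries, as known for this line, and the leukocyte, endothelial, fibroblast, acinar and islet markers were at or below 0.139 CPM. One library, siACO1 replicate 3, stood apart. Divided by its degrees of freedom, the chi-square statistic comparing its counts with those of its replicates was 11.3 and 12.1, against 2.27 to 5.50 for all other pairs of replicates, and its deviation from them was lower for longer transcripts (rho -0.23 by Spearman's method over exon lengths of 15384 genes, a description since genes are not replicates). In that library the tested members lay a median of 0.10 above their replicates on the log2 scale, against 0.01 for all genes, so siACO1 counts, and values whose call changed, are also given without it.

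Of the 32 members, 26 passed the filter on low counts and were tested, with between 12 and 13807 counts in a library. The other members had few or no counts. SNHG22 had 81 counts over the 12 libraries, SNHG32 had 21, SNHG28 had 3 and SNHG27 had 1. SNHG18 and SNHG9 had 0 counts in every library, which allows up to 3 counts, or 0.0685 to 0.124 CPM depending on depth, for counting error only. All of the SNHG28 exon bases and 23.2% of those of SNHG32 are shared with another gene on the same strand, and how reads there were assigned is not known. Those genes were also low, with ENSG00000256029 over SNHG28 at a mean of 0.038 CPM and ENSG00000285565 over SNHG32 at 0. Levels are CPM after TMM scaling, which adjusts library sizes by trimmed means of gene-wise ratios.

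Per kilobase of exon (GENCODE 29 exon lengths), SNHG29 was the highest host in control cells, at 77.3 to 79.9 CPM per kilobase. SNHG19, a host of under 1 kilobase, followed at 63.9 to 76.6 and GAS5 at 44.7 to 47.9, with no overlap between these 3. SNHG3 (35.7 to 39.5) and SNHG6 (35.7 to 39.5) could not be ordered, nor could DANCR (31.9 to 32.8) and SNHG1 (30.1 to 33.1). At the other end, SNHG14 was at 1.14 to 1.24 and SNHG31 at 0.197 to 0.288 CPM per kilobase. These lengths pool the exon bases of all annotated transcripts of a gene, so the order depends on that annotation. GAS5 has 3631 exon bases from 29 transcripts and SNHG19 has 342 from 1. The lengths of the transcripts present in these cells were not measured. In total counts the set was dominated by few members: SNHG29, GAS5 and SNHG3 together made up 43.4% of the summed mean CPM.

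**Figure D1:**
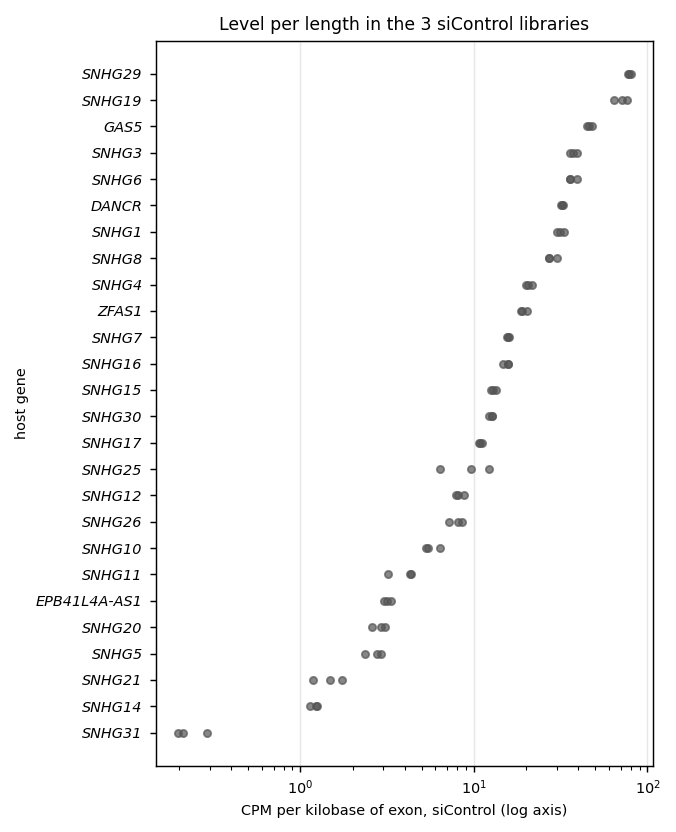
Level of the 26 tested host genes in control cells, as CPM per kilobase of exon on a log axis, with 1 point for each of the 3 siControl libraries and genes in order of their mean. With the exon bases of all annotated transcripts pooled, SNHG29, SNHG19 and GAS5 lead without overlap, and SNHG31 is lowest at 0.197 to 0.288.

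Against siControl, host genes that changed were mostly lower. In bulk RNA, fewer cells expressing a transcript and less of it per cell cannot be told apart. In siSLC25A1 9 of the 26 tested members were called and all 9 were lower. Of all genes tested, 19.6% were called, 10.3% higher and 9.27% lower. In siACLY 9 members were called, 8 lower and 1 higher, with 36.7% of all genes called, 18.4% higher and 18.3% lower. In siACO1 15 were called, 13 lower and 2 higher, with 37.1% of all genes called, 17.8% higher and 19.3% lower. Without siACO1 replicate 3 the number in siACO1 was 19, 17 lower and 2 higher, with GAS5, SNHG17, SNHG19 and SNHG30 added to the lower members and 37.3% of all genes called. Median log2 fold changes of the tested members were -0.13, -0.14 and -0.20 in the same order, beside medians of 0.00, 0.01 and 0.01 over all 16197 tested genes, and the siACO1 median was -0.25 without that library. With library totals in place of TMM, 10 members were called in siACLY, 4 higher and 6 lower, with 36.3% of all genes called. The members' median was then -0.10 and that of all genes 0.05. The 3 comparisons share their control libraries, so they are not independent of each other.

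A plain count of members whose knockdown libraries all lay outside the control range gave the following. In siSLC25A1 2 members lay above and 11 below the controls, with 18.4% and 18.7% of all genes. In siACLY 3 lay above and 9 below, with 25.5% and 25.0% of all genes. In siACO1 2 lay above and 12 below, with 22.9% and 23.4% of all genes. In all 3 the members below control outnumbered those above, and over all genes the shares were nearly even.

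The summed CPM of all 32 members lay between 1447 and 1515 in the siControl libraries. It was 1324 to 1333 after SLC25A1 knockdown, 1437 to 1451 after ACLY knockdown and 1259 to 1348 after ACO1 knockdown. The siSLC25A1 and siACO1 libraries were all below the controls, while those of siACLY overlapped them.

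**Figure D2:**
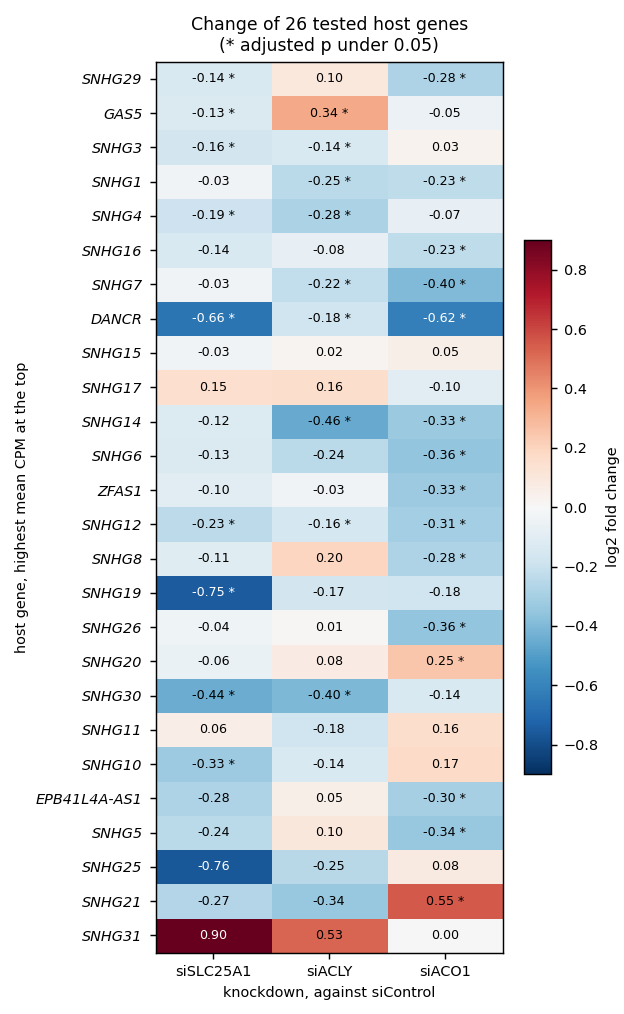
Log2 fold change of the 26 tested host genes (vertical, highest mean CPM at the top) in each knockdown against siControl (horizontal), with red for higher and blue for lower. Asterisks mark an adjusted p under 0.05. DANCR is blue and marked in all columns, and GAS5 in siACLY is the only marked red cell outside siACO1.

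DANCR had the largest called fall in siACO1 and, after SNHG19, in siSLC25A1. This RNA carries SNORA26 and is known for holding progenitor cells back from differentiation. Its level was 74.9, 72.9 and 73.7 CPM in siControl, 47.4, 45.4 and 47.5 in siSLC25A1, 65.1, 66.7 and 63.9 in siACLY and 48.7, 44.5 and 51.3 in siACO1. Every knockdown library was below every control library. The log2 fold change was -0.66 (SE 0.05, adjusted p 1.07e-10) in siSLC25A1, or 63.4% of control. In siACO1 it was -0.62 (SE 0.05, adjusted p 9.66e-11), or 65.3% of control, and in siACLY -0.18 (SE 0.05, adjusted p 0.00565). SiACLY lay above both other knockdowns (adjusted p 2.64e-08 against siSLC25A1 and 5.27e-08 against siACO1). SiSLC25A1 and siACO1 differed by -0.04 with a 95% interval of -0.15 to 0.07.

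After SLC25A1 knockdown the other leading falls were SNHG19, SNHG30 and SNHG10. SNHG19, host of the box C/D snoRNA SNORD60, was at 26.2, 21.8 and 24.3 CPM in siControl, 14.9, 14.9 and 13.3 in siSLC25A1, 20.6, 18.3 and 25.6 in siACLY and 18.3, 17.8 and 27.7 in siACO1. Only the siSLC25A1 libraries did not overlap the controls (log2 fold change -0.75, SE 0.18, adjusted p 0.0183). That call was lost without any 1 of the siSLC25A1 libraries or without siControl replicate 1 or 3, at log2 fold changes of -0.77 to -0.68. In siACO1 SNHG19 was at -0.18 (adjusted p 0.483) with all libraries and at -0.42 (adjusted p 0.00136) without replicate 3, which had the highest SNHG19 level of all 12 libraries.

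SNHG30, host of SNORD7, was at 18.3, 19.1 and 19.1 CPM in siControl and 15.5, 12.7 and 13.3 in siSLC25A1 (log2 fold change -0.44, SE 0.08, adjusted p 0.000192). It was at 14.6, 13.9 and 14.3 in siACLY (-0.40, SE 0.08, adjusted p 0.000218) and 16.1, 16.6 and 18.7 in siACO1 (-0.14, adjusted p 0.181, and -0.21, adjusted p 0.0481, without siACO1 replicate 3). The siSLC25A1 and siACLY libraries were all below the controls, and the highest siACO1 library reached the control range. SNHG10, a scaRNA host, fell by 0.33 in siSLC25A1 (SE 0.10, adjusted p 0.0208), from 11.1 ± 1.10 to 8.79 ± 0.875 CPM (SD, n = 3). That call was lost without siControl replicate 1 or without siSLC25A1 replicate 2 or 3, at -0.30 to -0.24. The remaining called falls in siSLC25A1 were small, between -0.23 and -0.13, and comprised SNHG12, SNHG4, SNHG3, SNHG29 and GAS5. The number of calls in siSLC25A1 was 3 without siControl replicate 1, with 13.9% of all genes called. Those of SNHG10, SNHG12, SNHG19, SNHG29, SNHG3 and GAS5 were then lost. Without siSLC25A1 replicate 3 the number was 5, with 15.1% of all genes, against 19.6% with all libraries.

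GAS5 was called higher in siACLY. SNHG8 and SNHG17 were also called higher there with a replicate block, and both of these and SNHG29 with library totals, when at least 10 counts were required of each library or with the 2 groups alone. GAS5 is named for its accumulation in growth-arrested cells, where its RNA escapes decay as translation slows, and its exons are known to bind the glucocorticoid receptor. GAS5 was at 174, 168 and 162 CPM in siControl, 156, 155 and 150 in siSLC25A1, 213, 214 and 212 in siACLY and 159, 156 and 170 in siACO1. All siACLY libraries were above all others, with a mean of 127% of the control level and a log2 fold change of 0.34 (SE 0.04, adjusted p 1.07e-07). All siSLC25A1 libraries were below the controls (-0.13, SE 0.04, adjusted p 0.0287), a call lost without siControl replicate 1 or 2 or siSLC25A1 replicate 2 or 3. In siACO1 the change was -0.05 (adjusted p 0.327), and -0.09 (adjusted p 0.0481) without replicate 3. GAS5 made up 14.8% of member counts in each siACLY library and 11.2% to 12.6% in the other libraries. GAS5-AS1, the transcript on the opposite strand, overlaps only 1.2% of the GAS5 exon bases and was near 0.45 CPM.

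SNHG29, host of SNORD49A, SNORD49B and SNORD65, was at 300, 294 and 291 CPM in siControl, 261, 270 and 273 in siSLC25A1, 310, 325 and 311 in siACLY and 241, 235 and 255 in siACO1. No 2 groups overlapped, with siACLY highest and siACO1 lowest. The fall was -0.28 in siACO1 (SE 0.04, adjusted p 2.48e-06) and -0.14 in siSLC25A1 (SE 0.04, adjusted p 0.0124), where the call was lost without siControl replicate 1 or siSLC25A1 replicate 1. In siACLY the difference of 0.10 did not pass (adjusted p 0.0609), although it did with library totals, with 10 counts in every library and with the 2 groups alone (adjusted p 0.00431 to 0.0288).

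ACLY knockdown lowered SNHG14 the most. SNHG14 is the long host of the SNORD115 and SNORD116 clusters, and its far end runs antisense to UBE3A. It was at 49.5, 53.7 and 53.0 CPM in siControl, 45.5, 47.7 and 50.3 in siSLC25A1, 37.3, 36.7 and 39.9 in siACLY and 43.1, 43.2 and 37.9 in siACO1. Both siACLY (log2 fold change -0.46, SE 0.06, adjusted p 4.03e-07) and siACO1 (-0.33, SE 0.06, adjusted p 4.32e-05) lay wholly below control. In siSLC25A1 the value was -0.12 (adjusted p 0.154). UBE3A itself was between -0.10 and 0.09 in the 3 knockdowns, with adjusted p-values of 0.085 to 0.98.

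SNHG4 and SNHG1 also fell with ACLY knockdown. SNHG4, which lies ahead of MATR3 and carries SNORA74A and SNORA74D, was at 96.0, 91.3 and 89.3 CPM in siControl, 79.1, 82.7 and 80.9 in siSLC25A1, 75.0, 77.9 and 74.5 in siACLY and 89.5, 88.4 and 85.3 in siACO1. Its fall was -0.28 in siACLY (SE 0.04, adjusted p 9.1e-06) and -0.19 in siSLC25A1 (SE 0.04, adjusted p 0.00258), while siACO1 overlapped control. SNHG1, host of the SNORD22 and SNORD25 to SNORD31 group, was at 124, 118 and 113 in siControl, 124, 112 and 111 in siSLC25A1, 103, 106 and 90.2 in siACLY and 100, 102 and 102 in siACO1. It fell in siACLY (-0.25, SE 0.05, adjusted p 0.000546) and siACO1 (-0.23, SE 0.05, adjusted p 0.00123) but not detectably in siSLC25A1 (-0.03, 95% interval -0.14 to 0.07).

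SNHG3, host of SNORA73A and SNORA73B, shares its start region with RCC1. Its level was 162, 153 and 146 CPM in siControl, 134, 136 and 141 in siSLC25A1, 144, 138 and 136 in siACLY and 156, 148 and 166 in siACO1. The siSLC25A1 fall (-0.16, adjusted p 0.0114) and the siACLY fall (-0.14, adjusted p 0.0186) were small, and siACO1 was at 0.03 (95% interval -0.06 to 0.12). The siSLC25A1 call was lost without siControl replicate 1, and the siACLY call without that library, without siACLY replicate 2 or 3 or with library totals. RCC1, with which 5.9% of the SNHG3 exon bases overlap on the same strand, changed by -0.15, -0.12 and -0.29 in siSLC25A1, siACLY and siACO1.

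In siSLC25A1 9 members were called lower and in siACLY 8, with 9.27% and 18.3% of all genes. The number was highest after ACO1 knockdown, at 13, with 19.3% of all genes called lower. After DANCR the largest falls were those of SNHG7, SNHG6 and SNHG26. SNHG7, host of SNORA17A and SNORA17B, was at 68.5, 67.4 and 69.2 CPM in siControl, 68.7, 65.4 and 66.1 in siSLC25A1, 59.1, 54.8 and 61.9 in siACLY and 50.0, 50.7 and 54.6 in siACO1. Its fall was -0.40 in siACO1 (SE 0.05, adjusted p 3.1e-07) and -0.22 in siACLY (SE 0.05, adjusted p 0.000915), and siACLY and siACO1 also differed from each other (adjusted p 0.00594).

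SNHG6, host of SNORD87, was at 49.2, 44.6 and 44.6 CPM in siControl, 40.0, 47.3 and 39.4 in siSLC25A1, 39.0, 34.3 and 43.7 in siACLY and 32.7, 33.7 and 41.4 in siACO1. The siACO1 and siACLY libraries were all below control, and siACO1 passed (log2 fold change -0.36, SE 0.10, adjusted p 0.0119, against -0.24 and 0.0728 in siACLY). In siACLY SNHG6 did pass by the DESeq2 Wald test, with no filter, with the 2 groups alone and without siACLY replicate 3. The siACO1 value was -0.48 without replicate 3, and the call was lost without replicate 2 (-0.31). SNHG26, host of SNORD93, fell by 0.36 (SE 0.08, adjusted p 0.000947), from 20.8 ± 1.83 to 16.2 ± 0.902 CPM (SD, n = 3). Both hosts are of the box C/D kind.

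ZFAS1, which starts beside ZNFX1 on the other strand and holds the SNORD12 group, was at 42.5, 45.5 and 41.8 CPM in siControl, 37.7, 40.2 and 43.2 in siSLC25A1, 41.3, 46.0 and 39.8 in siACLY and 35.3, 35.2 and 32.9 in siACO1. Only siACO1 lay wholly below control (-0.33, adjusted p 9.41e-05). SNHG12, a mixed host of SNORD99 and H/ACA snoRNAs, was at 37.5, 34.6 and 33.6 in siControl, 31.3, 31.0 and 27.6 in siSLC25A1, 31.4, 32.3 and 31.3 in siACLY and 28.5, 28.6 and 28.3 in siACO1. Like DANCR it was below control in every knockdown library (-0.23, -0.16 and -0.31, adjusted p 0.00662, 0.0434 and 0.000174). The siACLY call of SNHG12 was lost under 8 alternative settings, at -0.18 to -0.11, 5 of them without 1 library (siControl replicate 1 or 2 or any siACLY replicate). Its siSLC25A1 call was lost without siControl replicate 1 or siSLC25A1 replicate 3.

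SNHG16, host of the SNORD1 group, was at 84.0, 78.7 and 84.1 CPM in siControl, 77.5, 70.9 and 76.1 in siSLC25A1, 74.4, 82.7 and 77.5 in siACLY and 68.9, 70.9 and 70.2 in siACO1. It fell in siACO1 (-0.23, adjusted p 0.000392), and the siSLC25A1 value of -0.14 narrowly missed the threshold (adjusted p 0.0512). That value did pass with 10 counts in every library, with the 2 groups alone and without siControl replicate 2 or siSLC25A1 replicate 1. SNHG8, host of SNORA24, was at 25.1, 25.0 and 27.6 in siControl, 23.9, 25.0 and 23.0 in siSLC25A1, 29.9, 26.6 and 32.3 in siACLY and 19.6, 19.5 and 24.7 in siACO1. Its fall in siACO1 was -0.28 (adjusted p 0.00893), and -0.40 (adjusted p 5.28e-05) without replicate 3, while without siACO1 replicate 1 or 2 or siControl replicate 3 the call was lost. In siACLY SNHG8 was at 0.20 (adjusted p 0.0558), and with the replicate block at 0.19 (adjusted p 0.0344). Among the lower-expressed hosts, EPB41L4A-AS1 (-0.30, adjusted p 0.0194) and SNHG5 (-0.34, adjusted p 0.0362) also fell in siACO1. The siACO1 range of SNHG5 overlapped control. The EPB41L4A-AS1 call was lost without siControl replicate 3 or siACO1 replicate 1 and with library totals. In siSLC25A1 EPB41L4A-AS1 was called lower only with 10 counts in every library and without siSLC25A1 replicate 2. The SNHG5 call was lost without siControl replicate 1 or 2 or siACO1 replicate 1, with library totals and with the 2 groups alone.

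The 2 hosts that rose in siACO1 both enclose a scaRNA. SNHG20 was at 18.6, 15.8 and 17.8 CPM in siControl, 17.0, 17.2 and 15.7 in siSLC25A1, 18.6, 17.6 and 18.7 in siACLY and 20.2, 20.4 and 21.4 in siACO1 (log2 fold change 0.25, SE 0.07, adjusted p 0.0076). That call was lost without siControl replicate 2 (0.18). SNHG21 was at 1.56, 1.25 and 1.82 CPM in siControl and 2.50, 2.21 and 2.05 in siACO1 (0.55, SE 0.22, adjusted p 0.0452), a call lost under 6 alternative settings at 0.41 to 0.56, among them leaving out siControl replicate 1 or 2 or siACO1 replicate 1 or 2. SNHG10, the third tested scaRNA host, was at 0.17 in siACO1 (adjusted p 0.178), and at 0.09 (adjusted p 0.543) without replicate 3. All 3 were lower in siSLC25A1 than in siACO1, where 20.3% of all genes were called lower. The log2 differences were -0.31 for SNHG20, -0.82 for SNHG21 and -0.50 for SNHG10 (adjusted p 0.00127, 0.00469 and 0.000206). A difference between scaRNA hosts and the other members was not tested.

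SNHG15 was not called in any of the 6 comparisons, and SNHG17 in none with siControl. SNHG15, host of SNORA9, was at 49.1, 47.1 and 45.5 CPM in siControl, 47.6, 45.3 and 45.9 in siSLC25A1, 47.2, 50.0 and 47.2 in siACLY and 47.4, 50.5 and 48.8 in siACO1. Its 95% intervals on the log2 scale were -0.14 to 0.08, -0.08 to 0.13 and -0.05 to 0.16, and all groups overlapped. SNHG17, host of the SNORA71 group, was at 45.2, 45.1 and 46.4 in siControl, 53.1, 51.5 and 47.2 in siSLC25A1, 53.2, 48.5 and 50.3 in siACLY and 44.9, 37.3 and 45.5 in siACO1. Its siSLC25A1 and siACLY libraries were all above control, without passing the threshold (0.15, adjusted p 0.0926, and 0.16, adjusted p 0.0505). The siACLY value of SNHG17 did pass with the replicate block (0.15, adjusted p 0.0434), with library totals (0.20, adjusted p 0.0106), with 10 counts in every library (0.17, adjusted p 0.0346) and with the 2 groups alone (0.16, adjusted p 0.00643). The siSLC25A1 value passed with the 2 groups alone (adjusted p 0.0254). Without siACO1 replicate 3 it was lower in siACO1, by -0.16 (adjusted p 0.0499). SNHG11, SNHG25 and SNHG31 were likewise not called in any comparison with siControl, with SNHG31 at group means of 0.484 to 0.910 CPM. Their largest values were imprecise. SNHG25, host of SNORD104, was at -0.76 in siSLC25A1 (SE 0.34, adjusted p 0.14) and SNHG31 at 0.90 (SE 0.36, adjusted p 0.0757). The SNHG25 value passed with the replicate block (-0.75, adjusted p 0.0227), with no filter (adjusted p 0.0054), with the 2 groups alone (adjusted p 0.0173) and by the DESeq2 Wald test (adjusted p 0.044). SNHG31 passed with 10 counts in every library (adjusted p 0.0434), and SNHG11 in siACLY without siControl replicate 3 (-0.31, adjusted p 0.0253).

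**Figure D3:**
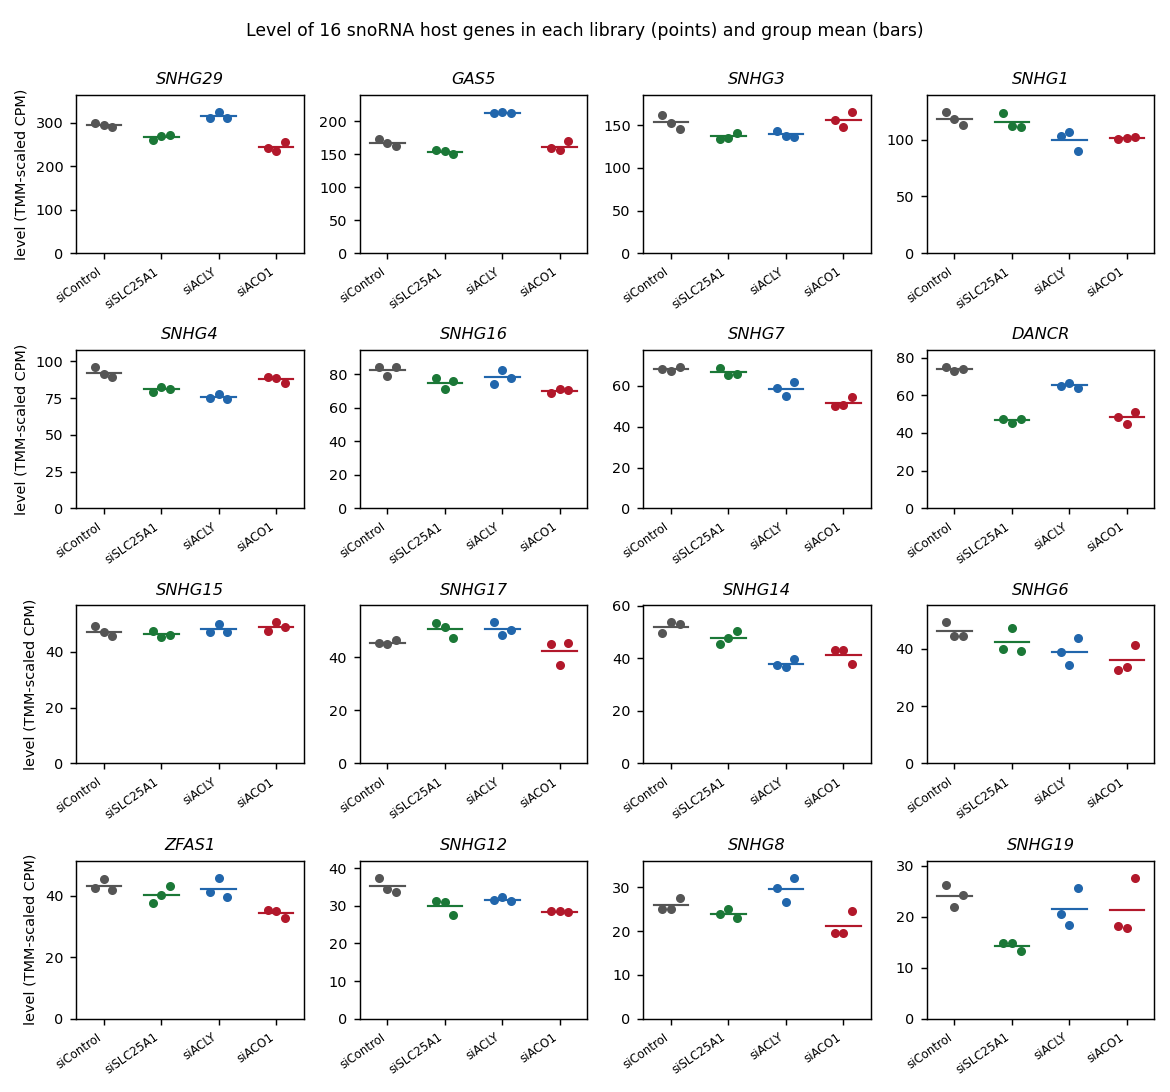
TMM-scaled CPM (vertical, from 0) of the 16 host genes that averaged 20 CPM or more, with 1 point per library, bars for group means and the 4 groups side by side. DANCR averages 73.8 in siControl, 46.8 in siSLC25A1 and 48.2 in siACO1, and GAS5 is highest in siACLY with a mean of 213.

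The knockdowns were also compared directly. Control libraries do not enter these differences, but the filter, scaling and dispersions came from all 12 libraries. SiACLY and siACO1 differed in 18 of the 26 tested members, 12 higher and 6 lower in siACLY, with 42.1% of all genes called (21.4% higher and 20.7% lower in siACLY). The members higher in siACLY were led by SNHG8 (0.47, SE 0.08, adjusted p 3.09e-05), SNHG5 (0.45), DANCR (0.44) and GAS5 (0.40, SE 0.04, adjusted p 4.7e-09). Those lower in siACLY were led by SNHG21 (-0.89, SE 0.22, adjusted p 0.00181), SNHG11 (-0.34), SNHG10 (-0.31) and SNHG30 (-0.26). Leaving out 1 library ended the call of SNHG5 (siACO1 replicate 1), SNHG11 (siACLY replicate 3), SNHG10 (siACLY replicate 1 or siACO1 replicate 3) and SNHG30 (siACO1 replicate 3). Without siACO1 replicate 3, 17 members differed, 12 higher and 5 lower, with SNHG6 and SNHG14 added and SNHG10, SNHG12 and SNHG30 lost, and 41.4% of all genes were called.

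SiSLC25A1 and siACLY differed in 10 members, 3 higher and 7 lower in siSLC25A1, with 33.8% of all genes called (17.5% higher and 16.3% lower). SNHG14, SNHG1 and SNHG7 were higher in siSLC25A1, by 0.33, 0.21 and 0.19. SNHG19 (-0.58, adjusted p 0.0388, lost without any siSLC25A1 library or without siACLY replicate 1 or 3), DANCR (-0.48) and GAS5 (-0.47, SE 0.04, adjusted p 4.81e-10) led the lower members. SiSLC25A1 and siACO1 differed in 15 members, 8 higher and 7 lower in siSLC25A1, with 42.1% of all genes called (21.8% higher and 20.3% lower). With library totals the split was 6 higher and 9 lower, with 42.2% of all genes called. Without siACO1 replicate 3 it was 9 higher and 7 lower, with SNHG6 and SNHG8 added and SNHG31 lost, and 40.3% of all genes were called. SNHG7 (0.37, SE 0.05, adjusted p 1.25e-06) was the largest difference upwards among hosts over 20 CPM. SNHG31 differed by 0.90 (adjusted p 0.0469), at group means of 0.910 and 0.484 CPM, a call lost under 8 alternative settings, among them leaving out siSLC25A1 replicate 2 or siACO1 replicate 1 or 3.

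Ranges of 3 libraries against 3 did not overlap in 12 members above and 7 below for siACLY against siACO1, with 25.0% and 24.1% of all genes. For siSLC25A1 against siACLY the members were 4 and 8, with 23.4% and 23.0% of all genes. For siSLC25A1 against siACO1 they were 8 and 7, with 24.1% and 23.9% of all genes.

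Grouped by the RNA they carry, the 11 tested hosts of box C/D snoRNAs alone had 8 lower calls in siACO1 and 3 in each of siSLC25A1 and siACLY, and no higher call. Their medians were -0.14, -0.17 and -0.28 in siSLC25A1, siACLY and siACO1. The 10 tested hosts of box H/ACA snoRNAs alone had 3, 4 and 4 lower calls and no higher call, with medians of -0.07, -0.06 and -0.09. Of all genes tested, 9.27%, 18.3% and 19.3% were called lower, and 10.3%, 18.4% and 17.8% higher. Without siACO1 replicate 3 the lower calls in siACO1 were 10 for the box C/D hosts and 5 for the H/ACA hosts, with 20% of all genes. The difference between the kinds was not tested.

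Grouped by start site, the 9 tested members with the pyrimidine run had 4, 4 and 5 lower calls and no higher call, with medians of -0.19, -0.16 and -0.31. The 14 tested members without it had 5, 4 and 7 lower calls, and 0, 1 and 2 higher calls, with medians of -0.13, -0.11 and -0.18. They include GAS5, whose window lies wholly upstream of its GENCODE gene. Beside these counts, the same 9.27%, 18.3% and 19.3% of all genes were called lower, and 10.3%, 18.4% and 17.8% higher. The lower calls in siACO1 were 7 with the run and 9 without it when siACO1 replicate 3 was left out, with 20% of all genes. The run thus occurs in hosts that fell, such as DANCR and SNHG7 printed above, and is missing from the annotated start of others that fell, such as SNHG29. This difference was not tested either.

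The medians of other long noncoding RNAs were above those of the members, a difference that was not tested. Of 2362 tested long noncoding genes outside the set (GENCODE 29 types), 334 were called higher and 116 lower in siACLY, and 397 higher and 86 lower in siACO1, with medians of 0.16 and 0.21. In siSLC25A1 the counts were 77 and 71 and the median was 0.00. These genes have a median of 0.92 CPM, against 35.7 for the tested members. Among the 64 that averaged 20 CPM or more the medians were 0.02, 0.05 and 0.12 in siSLC25A1, siACLY and siACO1. Of 208 tested protein-coding genes that enclose a snoRNA, 39, 66 and 86 were called lower and 28, 27 and 19 higher. Their medians were -0.02, -0.07 and -0.15. Over all genes, 9.27%, 18.3% and 19.3% were called lower and 10.3%, 18.4% and 17.8% higher.

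**Figure D4:**
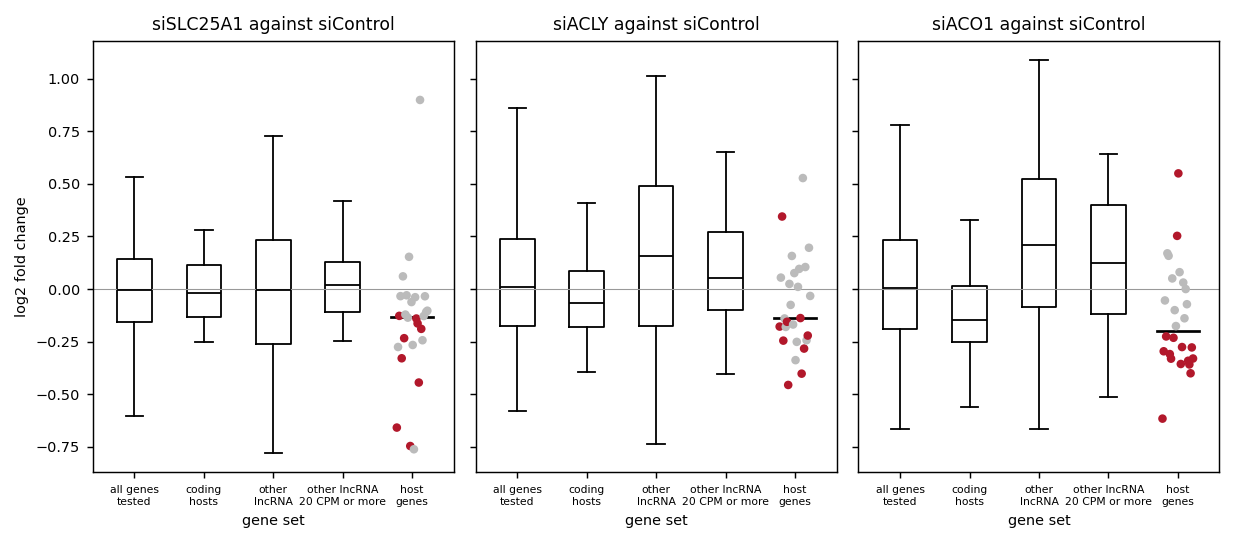
Log2 fold change against siControl (vertical) in each knockdown (panels) for gene sets; boxes span the quartiles with the median as a line, whiskers reach the 0.05 and 0.95 quantiles, and points are the 26 tested host genes, red where called and grey where not, with a bar at their median. The host genes' medians of -0.13, -0.14 and -0.20 lie below those of every other set shown. A hand-written list of 33 tested coding hosts, not shown here, had medians of -0.17, -0.10 and -0.20.

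Genes of the same pathways were read from lists. Over all genes tested, 10.3%, 18.4% and 17.8% were called higher in siSLC25A1, siACLY and siACO1, and 9.27%, 18.3% and 19.3% lower. Without siACO1 replicate 3 the siACO1 shares were 17.4% and 20%. List counts stand beside these shares, and no difference from them was tested. Without siACO1 replicate 3 the siACO1 counts given next became, higher and lower, 6 and 9 for NMD factors, 0 and 7 for NMD reporters, 0 and 9 for snoRNP proteins, 0 and 17 for polymerase I and rRNA processing, 0 and 26 for coding hosts, and 6 and 8 of 25 tested for translation control. NMD factors changed in both directions, with 3 higher and 4 lower of 21 tested in siSLC25A1, 3 and 5 in siACLY and 5 and 8 in siACO1, and medians of 0.03, -0.03 and -0.05. UPF1, the central NMD helicase, fell by 0.22, 0.27 and 0.21 in siSLC25A1, siACLY and siACO1. The decapping enzyme DCP2 rose most in siACO1 (0.78), and SMG5, itself a known NMD target, fell there by 0.52. UPF3B fell by 0.46 in siSLC25A1.

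The transcripts often used as NMD reporters, 13 of 13 tested, were not moved in 1 direction. In siSLC25A1 4 were higher and none lower (median 0.05), led by GADD45A (0.74), UPP1 (0.71) and ATF4 (0.36). In siACLY 3 were higher and 6 lower (median -0.11), with GADD45B lowest (-0.56) and GADD45A highest (0.35). In siACO1 none was higher and 5 were lower (median -0.08), led by UPP1 (-1.10), ATF4 (-0.46) and GADD45A (-0.35). Several of them also respond to the integrated stress response.

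SnoRNP proteins, which assemble on snoRNAs, had 1, 3 and 7 lower calls of 14 tested and no higher call in siSLC25A1, siACLY and siACO1. The shares of all genes called lower were 9.27%, 18.3% and 19.3%. SHQ1, an assembly factor of H/ACA particles, fell by 0.35 in siACO1, and DKC1, the pseudouridine synthase, by 0.23. Genes of RNA polymerase I and rRNA processing had 17 lower and 0 higher calls of 25 tested in siACO1 (median -0.25), led by POLR1E (-0.50), RRP9 (-0.34) and NOP14 (-0.32). In siSLC25A1 they had 3 higher and 4 lower calls and in siACLY 2 and 5. UBTF, the polymerase I upstream binding factor, fell by 0.62 in siACLY.

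Coding hosts on the hand-written list were mostly ribosomal protein genes. Whether each listed gene has the pyrimidine run at its start was not recorded. Of 33 tested, 16, 14 and 22 were lower and 1, 1 and 0 higher. Their medians were -0.17, -0.10 and -0.20, beside -0.13, -0.14 and -0.20 for the members. PPAN fell by 0.83 in siACO1 and by 0.51 in siACLY, RPL12 by 0.49 in siACO1 and RPL13A by 0.38 in siSLC25A1. Regulators of translation showed no common direction, with 5 higher and 2 lower calls of 24 tested in siSLC25A1, 4 and 5 in siACLY and 5 and 7 in siACO1. PPP1R15A, which restores translation after stress, rose by 0.52 in siSLC25A1 and 0.77 in siACLY. EIF4EBP1, the inhibitor of cap-dependent translation, fell by 0.56 in siACO1. DEPTOR, an inhibitory partner of the growth kinase mTOR, fell there by 1.21 (adjusted p 0.0134) from a low mean of 0.910 to 0.408 CPM, with overlapping ranges.

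Whether the counting used strand is not stated, so members with at least 20% of exon bases shared with another gene are uncertain. This applied to 7 tested members. For 3 of them the partner had few counts: EPB41L4A (0.03 CPM), MCMDC2 beside SNHG6 (0.07) and ENSG00000284526 beside SNHG16 (0.19). SNHG21 shares 72.9% of its exon bases with ENSG00000252690, on the same strand, which was at 0.60 CPM and at -0.10 in siACO1 (adjusted p 0.854), and reads of the pair cannot be told apart. For ZFAS1, whose exons overlap several genes, the partner ZNFX1 was at 72.8 CPM and fell by 0.19 in siACO1. GLRX5, opposite SNHG10, was at 78.6 CPM and rose by 0.34 in siACO1. DIPK1B, opposite SNHG7, was at 13.8 CPM and rose by 0.31 in siACO1, where SNHG7 fell.

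Few counts fell on the snoRNAs themselves in these libraries of polyadenylated RNA. Of 139 rows for snoRNAs inside the members, 125 had 0 counts in all libraries and only 5 passed the filter, and together they held 194 to 411 counts in a library. Among those 5, SNORD93 was lower in siACO1 (log2 fold change -1.29, adjusted p 0.0234), where its host SNHG26 also fell. SNORD93 had 168 counts over the 12 libraries and a mean of 0.61 CPM in siControl. Of all genes, 37.1% were called in siACO1, 19.3% lower. No other of the 5 was called against siControl. SNORA73B, with the most counts of them (1580), was at 0.22 in siSLC25A1 (adjusted p 0.282) and 0.15 in siACLY (adjusted p 0.405). Its host SNHG3 was called lower in both. In siACO1 SNORA73B was at -0.06 and SNHG3 at 0.03. Whether these snoRNAs follow their hosts was not tested.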

How the data were processed

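The deposited values are raw counts, whole numbers that the authors left unnormalized, in 1 column for each of 12 libraries, per the file headers. The submitters' processing notes name CASAVA, FastQC, Trim Galore, STAR 2.7.0e and DESeq2, and the builds GRCh38 and GRCm39; the counting tool, annotation release and use of strand are not given in the sources used here. Symbols came from a table of gene names that matched 62700 of 70116 identifiers. Exon lengths, overlaps and gene types are those of GENCODE 29 on GRCh38, which may differ from the annotation behind the counts; snoRNA positions and start windows are from RefSeq (GRCh38.p14).

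Genes were kept with filterByExpr (16197 genes), scaled by TMM and fitted with edgeR 4.0.16 (R 4.3.3) by its quasi-likelihood test with robust dispersions, with all 12 libraries, 4 groups and no block in the model. Adjusted p-values are Benjamini-Hochberg over all tested genes, two-sided, called under 0.05; an adjusted p without another tool named is from this fit. SE is the fold change divided by the square root of F. Library depth was 24159424 to 43792811 counts, and the common biological coefficient of variation was 4.89%. Replicates differed by more than sampling noise and each was counted. The scripts were tested on simulated data.

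The members and the lists were chosen with earlier results of these data known. Named are all members that passed the filter, those with a mean of at least 20 CPM with every library's value, the largest called changes, and up to 4 called members of each list per knockdown; partner genes were chosen by exon overlap, and UBE3A, SNORD93 and the sets of long noncoding genes after values were seen. Alternatives were DESeq2 1.42.0 (Wald test, size factors), library totals, no filter, 10 counts in every library, the 2 groups alone, a replicate block, a fold minimum and leaving out each library. The counts of lists and member groups without siACO1 replicate 3 were chosen after seeing the data.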

Additional observations from a re-analysis of the deposited data

How the results depend on the processing

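The number of members called in each comparison stayed within 1.5 times under size factors, library totals, the DESeq2 Wald test, both other filters, the fit of 2 groups alone and the replicate block. Without siControl replicate 1 the siSLC25A1 count against siControl was 3, and without siSLC25A1 replicate 3 it was 5, against 9. The shares of all genes called were 13.9% and 15.1%, against 19.6%. Leaving out 1 library at a time gave 3 to 9 calls for siSLC25A1, 7 to 11 for siACLY and 11 to 19 for siACO1 against siControl. The highest number was without siACO1 replicate 3. Of all genes, 13.9% to 16.2%, 30.1% to 30.9% and 30.7% to 37.3% were then called. With all libraries the shares were 19.6%, 36.7% and 37.1%. A change of at least 0.5 on the log2 scale in either direction was also required. This left 2, 0 and 2 members in siSLC25A1, siACLY and siACO1 against siControl. It left 1 in siSLC25A1 against siACLY, 3 in siSLC25A1 against siACO1 and 1 in siACLY against siACO1. The share of all genes passing that minimum was not computed. Of 728 alternative values for 56 named changes, 655 stayed on their side of the threshold, 73 lost the call and 0 changed sign; 22 of the 56 lost the call at least once.

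Replicate numbers are shared between groups but did not pair the libraries: same-numbered deviations from the group means correlated between -0.03 and 0.07, and the best match of a library had its own number in 15 of 36 cases. With the number as a replicate block 10, 11 and 15 members were called in siSLC25A1, siACLY and siACO1 against siControl. Of all genes, 20.2%, 37.3% and 37.6% were called. Between the knockdowns 10, 15 and 18 members were called, with 34.5%, 42.6% and 42.4% of all genes. Precision is limited by 3 libraries a group, and for hosts under 3 CPM by counting.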
